A study of Mus musculus with 2 samples.

Results

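Of 20823 mouse genes named on the arrays, 10 genes of the trophoblast lineage were examined: Tead4, Cdx2, Gata3, Tfap2c, Eomes, Elf5, Gata2, Hand1, Krt8 and Krt18. They were taken by name, with earlier results of these data already known. Every gene probe whose RefSeq accession belongs to a member was included, which gave 11 probes. Expression was compared between Baf53b- and Baf53a-expressing ES cells on 2 arrays, 1 per condition. With Baf53b, 8 of the 9 genes that could be measured on both arrays gave a higher level than with Baf53a, with a median difference of 0.20 on the log2 scale. The simple-epithelium keratins Krt8 and Krt18 were 1.35-fold and 1.25-fold higher, Gata3 was 1.26-fold higher and Eomes was 1.19-fold higher, whereas Gata2 differed by -0.03 and Elf5 was not well above background on either array. No member differed 2-fold. With 1 array per condition, these differences were not tested and carry no p-value, since the spread between cultures is unknown. In an array of whole cultures, more cells of a type and more RNA per cell cannot be told apart.

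The trophoblast is the outer lineage of the blastocyst, from which the fetal part of the placenta is formed. In outer cells, where Hippo signalling is low, the co-activator Yap1 binds Tead4 in the nucleus and the trophectoderm genes Cdx2 and Gata3 are switched on, while Oct3/4 restrains Cdx2 in the inner cells. Trophoblast stem cells are kept by Cdx2, Eomes, Elf5 and Tfap2c, and Gata2 and Hand1 act as they differentiate. ES cells come from the inner cells and seldom enter this lineage unless Oct3/4 is lost or a trophoblast factor is forced, which is why these genes are commonly read as a sign of that fate.

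Both groups were Baf53a cKO ES cells, a line derived from E14 mouse ES cells as 1 clone, in which both alleles of Baf53a had been mutated with CRISPR/Cas9 and a resistant Baf53a was kept under a Tet-off promoter. The cells received a constitutive vector for Myc-tagged Baf53a or for Baf53b, the form of this BAF complex subunit found in neurons. Tet was added at 1 μg/mL from 48 h after transfection and kept for 6 days in medium with LIF, which shut off the resistant Baf53a in both groups. Neither group was left without a Baf53 form, and untransfected cells and cells without Tet were not analysed here.

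Each array held 39429 gene probes, of which 75.2% with Baf53a and 76.4% with Baf53b were well above background. The 75th percentile of the processed signal was 1161 with Baf53a and 1128 with Baf53b and was set to 0 on the log2 scale of each array. Levels below are on that scale, and differences are Baf53b- minus Baf53a-expressing cells. The labels were checked on the transfected genes. Actl6b, the gene of Baf53b, gave a processed signal of 3.40 with Baf53a, not well above background, and 119 with Baf53b, at least 14.5-fold higher. Actl6a, the gene of Baf53a, gave 3806 and 3600, which does not tell the groups apart, so the check rests on Actl6b. Whether the probe of either gene binds the transfected transcript was not examined. As for the cell type, all 10 ES cell markers examined, among them Pou5f1 (Oct3/4), were well above background on both arrays. Their median difference was -0.08, from -0.15 for Esrrb to 0.07 for Sox2, with 2 of 10 higher with Baf53b. Relative to probes of like brightness the median was -0.04, with 4 of 10 higher.

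The factors that specify the lineage were examined first. Tead4, the DNA-binding partner of Yap1, gave a processed signal of 468 with Baf53a and 481 with Baf53b. Cdx2, the homeobox factor that defines the trophectoderm, gave 564 with Baf53a and 621 with Baf53b. Gata3, a zinc finger factor that acts in parallel with Cdx2, gave 585 with Baf53a and 714 with Baf53b. All of these signals stood far over the lowest signal well above background, which was 8.45 with Baf53a and 9.75 with Baf53b. After scaling, the log2 difference was 0.08 for Tead4 (1.06-fold), 0.18 for Cdx2 (1.14-fold) and 0.33 for Gata3 (1.26-fold). Tfap2c, the AP-2 factor of trophoblast stem cells that is also made in germ cell precursors, gave 2301 with Baf53a and 2559 with Baf53b, a difference of 0.20 (1.15-fold). The array software attaches an error to each signal, which comes to 0.20 for each of these 4 differences. Only that of Gata3 was larger than its error.

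Eomes, a T-box factor needed for trophoblast stem cells and later for mesoderm and definitive endoderm, had 2 probes. Probe 1 (A_55_P2150717) gave 329 with Baf53a and 401 with Baf53b, a log2 difference of 0.33 with a software error of 0.20. Probe 2 gave 43.7 with Baf53a and 48 with Baf53b, a difference of 0.18 with an error of 0.22. Both probes thus gave a higher signal with Baf53b, and their mean difference was 0.25 (1.19-fold). Elf5, an ETS factor whose gene is methylated in ES cells and open in trophoblast stem cells, gave 7.83 with Baf53a and 5.65 with Baf53b. Neither value was well above background, and no fold is given for Elf5.

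The factors linked to later trophoblast cells were Gata2 and Hand1. Gata2, which acts with Gata3 on placental hormone genes, gave 741 with Baf53a and 704 with Baf53b, a log2 difference of -0.03 after scaling. Hand1, a basic helix-loop-helix factor of trophoblast giant cells that also marks extraembryonic and lateral mesoderm, gave 150 with Baf53a and 162 with Baf53b, a difference of 0.15 (1.11-fold). Both were within the software error, which was 0.20 for Gata2 and 0.21 for Hand1.

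The structural genes held the largest difference of the 9 genes measured, that of Krt8. Krt8 and Krt18 encode the type II and type I keratins that pair to form the filaments of the trophectoderm and of other simple epithelia. Krt8 gave a processed signal of 3633 with Baf53a and 4778 with Baf53b, a log2 difference of 0.44 with a software error of 0.20. Krt18 gave 38957 with Baf53a and 47401 with Baf53b, a difference of 0.32 with an error of 0.20. Both keratins were thus well above background already in Baf53a-expressing cells, and no spot on either array was saturated. In the mouse gene table, 1 entry is named as a pseudogene of Krt8. The files hold no probe sequences, so whether the probe also binds it was not examined.

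**Figure D1:**
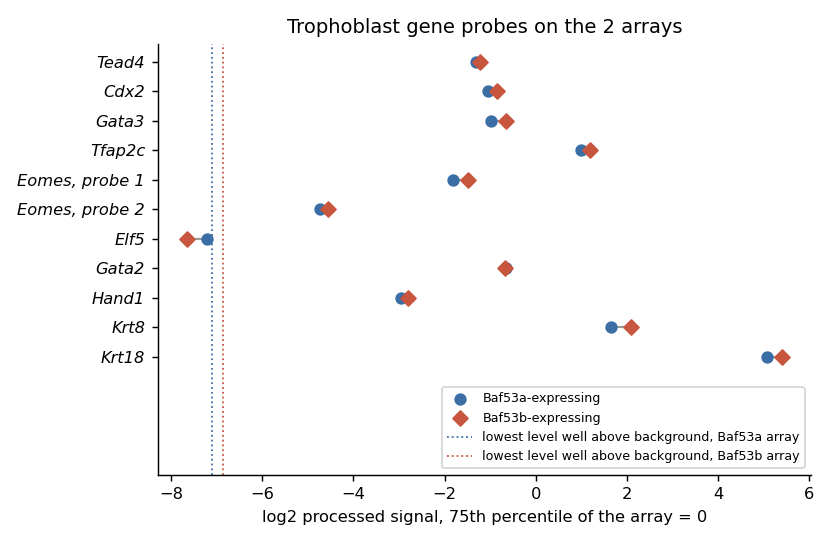
Level of each trophoblast gene probe (rows) on the array of Baf53a-expressing cells (circles) and of Baf53b-expressing cells (diamonds), as the log2 processed signal with the 75th percentile of each array at 0, with 1 array per condition and dotted lines at the lowest level well above background. Elf5 lies below its line on both arrays, and the levels of Krt8 move from 1.65 to 2.08 and of Krt18 from 5.07 to 5.39.

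The windows around the annotated start sites are given as sequence context only. They are shown for the 4 genes with the highest differences and for Cdx2, the defining factor of the lineage. Each runs 5′ to 3′ on the strand of the gene from 250 bases before to 50 bases after the start (RefSeq, GRCm38.p6). Capitals mark matches on either strand to GGAATG, the letters TEAD factors bind, to GCCNNNGGC, those AP-2 factors bind, and to AGATAA, those GATA factors bind. Krt8 lies at chr15:102004293-102004592 on the minus strand and Krt18, its neighbour, at chr15:102027966-102028265 on the plus strand. Gata3 lies at chr2:9878551-9878850 on the minus strand, Eomes at chr9:118477939-118478238 on the plus strand and Cdx2 at chr5:147307200-147307499 on the minus strand.
Krt8: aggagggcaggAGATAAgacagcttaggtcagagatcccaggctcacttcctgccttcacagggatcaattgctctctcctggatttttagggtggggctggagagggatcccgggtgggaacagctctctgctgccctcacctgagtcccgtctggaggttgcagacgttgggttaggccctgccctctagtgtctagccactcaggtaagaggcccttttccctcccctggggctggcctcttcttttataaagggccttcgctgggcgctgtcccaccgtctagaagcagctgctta
Krt18: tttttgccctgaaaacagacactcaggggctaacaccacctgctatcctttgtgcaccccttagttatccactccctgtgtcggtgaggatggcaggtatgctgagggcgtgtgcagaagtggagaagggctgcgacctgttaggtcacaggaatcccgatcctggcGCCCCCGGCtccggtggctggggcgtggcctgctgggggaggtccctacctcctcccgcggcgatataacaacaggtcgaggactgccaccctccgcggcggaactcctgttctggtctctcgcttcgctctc
Gata3: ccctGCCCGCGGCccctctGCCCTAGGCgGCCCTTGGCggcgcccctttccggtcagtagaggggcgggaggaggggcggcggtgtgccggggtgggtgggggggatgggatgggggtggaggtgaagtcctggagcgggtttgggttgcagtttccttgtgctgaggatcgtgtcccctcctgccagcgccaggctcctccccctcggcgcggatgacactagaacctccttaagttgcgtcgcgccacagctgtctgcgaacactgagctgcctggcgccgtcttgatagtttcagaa
Eomes: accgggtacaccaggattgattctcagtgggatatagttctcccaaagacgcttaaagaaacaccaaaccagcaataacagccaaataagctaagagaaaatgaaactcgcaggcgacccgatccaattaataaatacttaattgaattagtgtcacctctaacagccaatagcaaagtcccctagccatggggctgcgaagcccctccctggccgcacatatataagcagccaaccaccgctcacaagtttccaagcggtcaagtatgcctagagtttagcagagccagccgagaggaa
Cdx2: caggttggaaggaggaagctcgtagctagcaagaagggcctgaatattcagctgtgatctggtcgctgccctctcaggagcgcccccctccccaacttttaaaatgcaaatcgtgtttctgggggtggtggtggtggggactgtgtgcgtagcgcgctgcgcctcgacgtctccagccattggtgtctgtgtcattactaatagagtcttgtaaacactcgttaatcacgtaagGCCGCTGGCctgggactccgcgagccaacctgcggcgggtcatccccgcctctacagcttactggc

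The Gata3 window held the AP-2 letters at -246, -231 and -221 from the start, that of Krt18 at -83 and that of Cdx2 at -16. The Krt8 window held the GATA letters at -239, and the Eomes window held none of the 3 motifs. RefSeq windows were given for 7 of the 10 genes, 9 windows in all. Hand1, Tead4 and Tfap2c had none in the table. The AP-2 letters were in 4 of the 9 windows against 16.6% of 32851 windows of all genes, the TEAD letters in 2 of 9 against 14.7%, and the GATA letters in 1 of 9 against 11.2%. These matches describe the letters of the windows only, and enrichment was not tested. The AP-2 letters are G and C at every fixed position. The GC content of the 9 windows ranged from 47.3% for Eomes to 73.7% for a window of Gata2, which also held the AP-2 letters. The median over all windows was 52.7%.

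**Figure D2:**
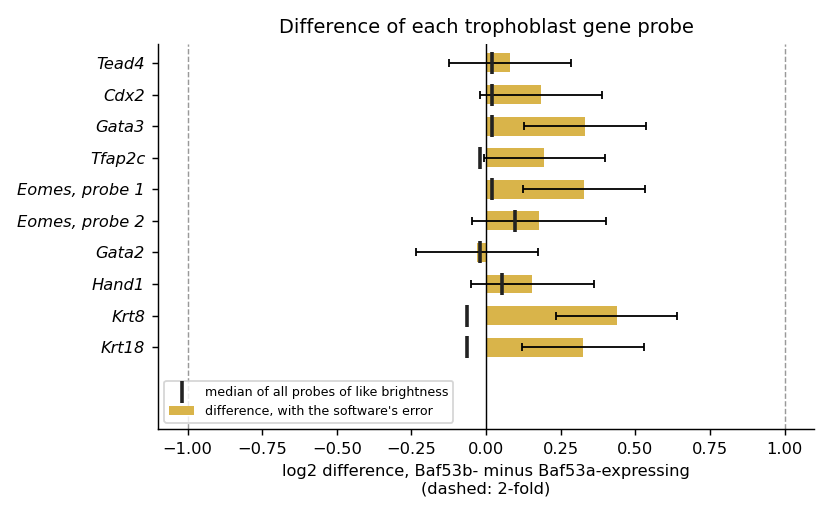
Log2 difference of each trophoblast gene probe measured on both arrays, Baf53b- minus Baf53a-expressing cells, with the software's error of the difference as whiskers, the median of all probes in the same brightness group as vertical ticks, and dashed lines at 2-fold. The bars of Krt8 (0.44), Gata3 (0.33), Eomes probe 1 (0.33) and Krt18 (0.32) exceed their whiskers, and no bar reaches 2-fold.

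To set the members beside the rest of the array, the same counts were made over all 16608 named genes measured on both arrays. Of the 9 members, 8 were higher with Baf53b by any amount, against 49.1% of all genes. A difference of at least 0.2 in favour of Baf53b was found for 4 members (Krt8, Gata3, Krt18 and Eomes), against 12.7% of all genes, and one of at least 0.2 in favour of Baf53a for 0 members, against 6.85% of all genes. A 2-fold difference was found for 0 members, against 0.193% of all genes. The median was 0.20 for the members and -0.00 for all genes. Without the keratins, 6 of 7 members were higher, with a median of 0.18. By the software's own error, 4 of the 10 member probes were higher by more than the error, against 12.7% of all probes with 1 spot. By the same error, 0 member probes were lower by more than it, but the share of all probes that were so was not counted.

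The size of a difference depended on brightness across the whole array, so probes measured on both arrays were split into 5 groups of equal size by their mean level, from group 1, the dimmest, to group 5, the brightest. The median difference was 0.10, 0.05, 0.02, -0.02 and -0.06 from group 1 to group 5, and probes at least 0.2 higher with Baf53b made up 35.5%, 21.2%, 10.8%, 4.84% and 2.94% of these groups. Tead4, Cdx2, Gata3 and probe 1 of Eomes lay in group 3, Tfap2c and Gata2 in group 4, Krt8 and Krt18 in group 5, Hand1 in group 2 and probe 2 of Eomes in group 1. The members at least 0.2 higher were thus mostly in groups where such differences are few.

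Relative to the median of its own group, Krt8 was higher by 0.50 and Krt18 by 0.39, since the median of group 5 lay below 0. In group 5, 8 of 5850 probes stood at least as high as Krt8 (0.137%, Krt8 included) and 47 at least as high as Krt18 (0.803%). Gata3 and probe 1 of Eomes were both 0.31 above the median of group 3, where 2.65% and 2.80% of probes stood at least as high. Tfap2c was 0.21 above the median of group 4 (5.09% at least as high) and Cdx2 0.16 above that of group 3 (12.9%). Tead4 (0.06 above, 33.1%), Hand1 (0.10 above, 29.1%), probe 2 of Eomes (0.08 above, 39.0%) and Gata2 (-0.01, 54.6%) lay well within the bulk of their groups. With the group median taken off, 8 of the 9 genes still stood above 0, with a median of 0.19.

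**Figure D3:**
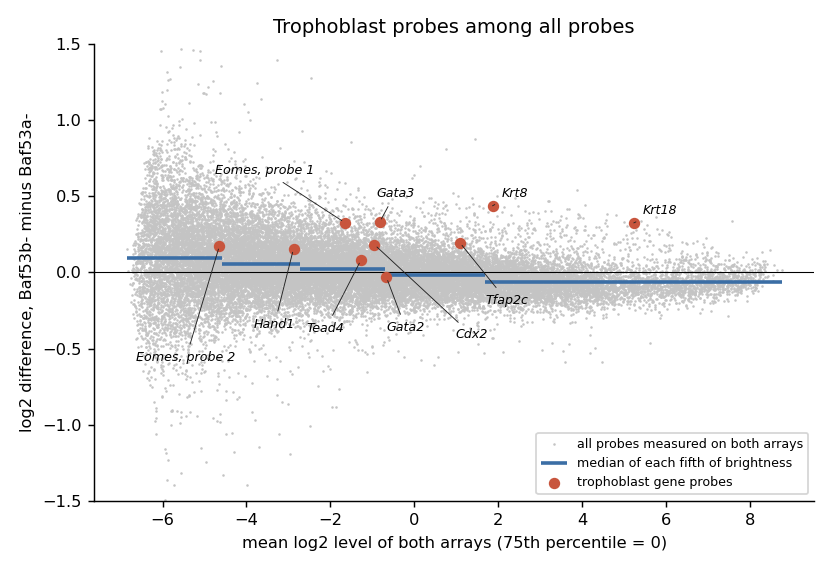
Log2 difference (Baf53b- minus Baf53a-expressing cells) against the mean log2 level of both arrays for 29247 probes measured on both (grey; 20 lie outside the axis), with the 10 trophoblast gene probes in red and the median of each of the 5 brightness groups as blue lines. Krt8 and Krt18 lie at the upper edge of the bright probes, and Tead4, Gata2 and probe 2 of Eomes lie inside the cloud.

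Spots that carry the same probe give an error that does not rest on the software. Among 324 probes printed at least 5 times, the SD of the difference between spots of 1 probe was 0.274 in group 1, 0.119 in group 2, 0.0799 in group 3, 0.0664 in group 4 and 0.0590 in group 5. Every member probe was printed once, and 8 of the 10 were higher with Baf53b by more than this SD of their group, against 26.0% of all probes with 1 spot. With the group median taken off, Tead4 and Hand1 were within the SD as well, which left 6 of the 10, against 24.9% of all probes with 1 spot. The 6 were both keratins, Gata3, probe 1 of Eomes, Tfap2c and Cdx2. The spots around each member, within 10 rows and columns, had a median difference of -0.02 to 0.02 relative to their brightness groups, and no member spot was marked as an outlier. This spot SD holds neither the spread between cultures nor that between labellings and hybridisations, which 2 arrays do not give.

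Each factor belongs to a family whose other members have their own roles, and close relatives of each were examined beside it. Of 20 paralogs, 18 were measured on both arrays, 12 of them were higher with Baf53b, 5 by at least 0.2, and 2 were lower by at least 0.2. Their median was 0.04, and it went to -0.01 when the arrays were centred on the median. Beside Cdx2 (0.18), Cdx1 differed by 0.11 and Cdx4 by -0.04. Beside Eomes (0.25), its nearest T-box relatives Tbr1, of cortical neurons, and Tbx21, of T cells, differed by -0.36 and 0.04, with Tbr1 close to the background. Elf1, Elf2, Elf3 and Elf4 differed by 0.27, 0.04, 0.06 and -0.05, so 1 of these 4 ETS factors differed by more than 0.2. The value of Elf1 is the mean of 2 probes. The brighter one (465 with Baf53a) differed by 0.15 and the dimmer one (50.9) by 0.38.

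Of the AP-2 factors beside Tfap2c (0.20), Tfap2a differed by 0.03 and Tfap2e by -0.03, while Tfap2b and Tfap2d were well above background on neither array. Among the GATA factors, Gata3 stood 0.33 higher, and the endoderm factors Gata4 and Gata6 stood 0.22 and 0.21 higher. The erythroid factor Gata1 differed by 0.04, Gata2 by -0.03 and Gata5 by -0.12. Hand2, the cardiac partner of Hand1, differed by 0.23. Among the TEAD factors, which all bind Yap1, Tead1 differed by 0.16, Tead3 by 0.25 and Tead4 by 0.08, whereas Tead2 differed by -0.23. The GATA and TEAD families thus held values on both sides of 0. The probes of Hand2 and Tead3 were dim, with signals of 31.7 and 29.2 with Baf53a. Both lay in brightness group 1, where 32.3% and 29.0% of probes stood at least as high.

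Upstream of Tead4 and Cdx2, 13 genes of the Hippo and Notch pathways were examined. Of 12 measured on both arrays, 7 were higher with Baf53b, 2 by at least 0.2 and 0 lower by at least 0.2, and the median of 0.03 went to -0.03 when the arrays were centred on the median. The highest was Amot (0.31), which encodes angiomotin, a junction protein that holds Yap1 in the cytoplasm of inner cells. The lowest was its relative Amotl1 (-0.05). Vgll4, which encodes a competitor of Yap1 for TEAD factors, was well above background with Baf53b only, at least 2.14-fold higher. Its probe was dim, with a signal of 5.63 with Baf53a and 17.6 with Baf53b, near the lowest signals well above background. Across the arrays, 858 probes were well above background with Baf53b only and 378 with Baf53a only.

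Other genes of trophoblast stem cells, such as receptors, connexins and proteases, gave values on both sides of 0. Of 13 genes, 10 were higher with Baf53b, 5 by at least 0.2 and 0 lower by at least 0.2. Their median of 0.11 went to 0.02 with the stricter filter on dim probes and to 0.03 with the brightest probe of each gene, and 7 to 11 genes were higher across the settings. The highest was the connexin gene Gjb5 (0.66), at a level of -5.20 with Baf53a, and the lowest was Bmp4 (-0.05), which encodes a secreted signal. Of 20 genes of differentiated trophoblast, 13 were measured on both arrays, 8 were higher, 3 by at least 0.2, and 0 lower by at least 0.2. Their median of 0.09 ranged from 0.04 when the arrays were centred on the median to 0.16 with the stricter filter. The highest was Flt1 (0.41), a VEGF receptor of spongiotrophoblast, and the lowest was the homeobox gene Dlx3 (-0.11). On neither array were 6 genes of this list well above background: Tpbpa, Tpbpb, Syna, Ctsq, Ctsj and Hsd3b6. The same held for 8928 of all 39411 probes that could be compared, so such a result is common. Tpbpa and Tpbpb mark spongiotrophoblast, Syna syncytiotrophoblast and Hsd3b6 giant cells, and Ctsq and Ctsj are placental cathepsins. Whether these cell types were absent was not tested. Other genes of mature placental cells were measured on both arrays, among them Synb (-0.10), Gcm1 (0.08), Prl3d1 (-0.03) and Prl3b1 (-0.08). The value of Gcm1 is a mean of 4 probes. Its bright probes differed by 0.35, 0.22 and 0.11, and a dim probe (30.4 with Baf53a) by -0.39. The 2 probes of Synb were dim and differed by -0.35 and 0.16. Prl2c2 had no named probe.

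Krt8 and Krt18 mark simple epithelia in general, so other genes of such epithelia were set beside them. All 12 were measured and higher with Baf53b, 5 of them by at least 0.2, with a median of 0.19. The highest was the type I keratin gene Krt23 (0.48) and the lowest Ocln (0.08), which encodes occludin of tight junctions. Across the alternative settings 11 or 12 of the genes measured were higher.

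Several members are shared with other early lineages, so their markers are given beside them. Of 10 primitive endoderm markers, all were measured and higher with Baf53b, 8 by at least 0.2, with a median of 0.25, above that of the trophoblast genes. They ranged from 0.01 for Sparc to 0.40 for Dab2, and Gata4 and Gata6, counted here and among the paralogs, are defining factors of that lineage. Krt8 and Krt18 are also expressed in extraembryonic endoderm, and the part of these cells in the keratin values was not tested. Of 6 early mesoderm markers measured on both arrays, 3 were higher, 0 by at least 0.2, and 1 was lower by at least 0.2. They ranged from -0.21 for Mesp1 to 0.12 for Fgf8, and Mixl1 was well above background on neither array. The probe of Mesp1 was dim, with a signal of 39.0 with Baf53a and 32.8 with Baf53b. The value of Fgf8 is the mean of -0.02 for a brighter probe (136 with Baf53a) and 0.25 for a dim one (27.3). Of 6 ectoderm markers, 4 were higher, 1 by at least 0.2, from -0.13 for Krt14 to 0.38 for Trp63. The other probe of Trp63 was well above background with Baf53a only, at least 2.15-fold higher there. That probe was dim, with a signal of 21.6 with Baf53a and 9.71 with Baf53b. The median was 0.02 for both of these lists, and it lay above 0 in 4 of 11 other settings for early mesoderm and in 3 of 11 for ectoderm.

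**Figure D4:**
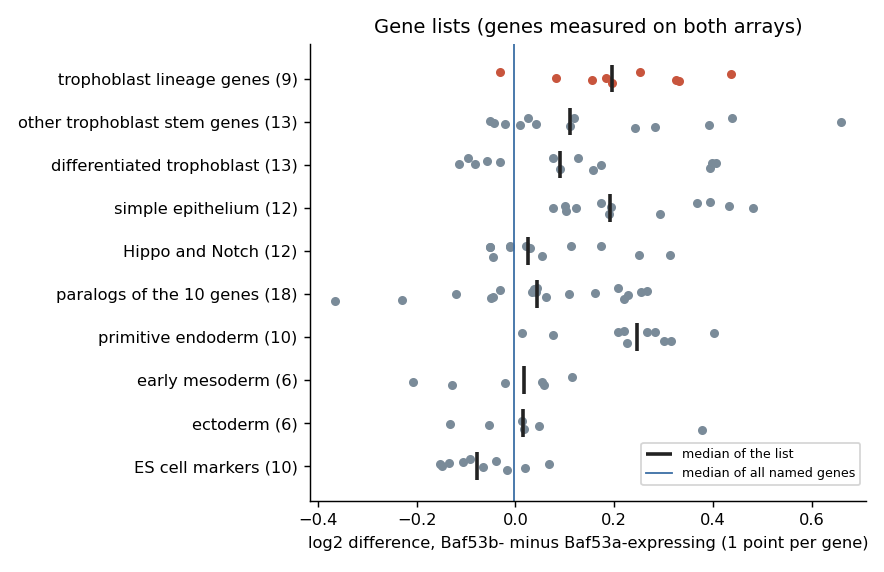
Log2 difference (Baf53b- minus Baf53a-expressing cells) of every gene measured on both arrays, 1 point per gene, for the trophoblast lineage genes (red) and the other lists, with the median of each list as a black tick, the median of all named genes as a blue line and the number of genes in brackets. The primitive endoderm list has a median of 0.25, the trophoblast genes 0.20, the simple epithelium list 0.19 and the ES cell markers -0.08, or -0.04 relative to probes of like brightness.

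The direction of the 9 members measured on both arrays did not turn in any of 11 other ways of processing the arrays. The 8 genes above 0 stayed above it in 11 of 11 settings, and Gata2 stayed below 0 in 11 of 11, from -0.08 to -0.0036. Krt8 ranged from 0.39 to 0.50, Krt18 from 0.27 to 0.39, Gata3 from 0.28 to 0.36 and Eomes from 0.19 to 0.33. Tead4 ranged from 0.03 to 0.08. Elf5 was counted only with no filter on dim probes and with the weaker detection flag. There it was lower with Baf53b (-7.64) than with Baf53a (-7.21), with neither level well above background. For a gene with a single probe, a setting that changes only the filter, the flag or the choice of probe cannot change the value. Cdx2, for instance, stayed at 0.183 under each of these, with outlier spots kept and in the authors' table. Only changes of scaling or background could turn the direction of such a gene. All 11 settings use the same 2 arrays and stand for no replicate.

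**Figure D5:**
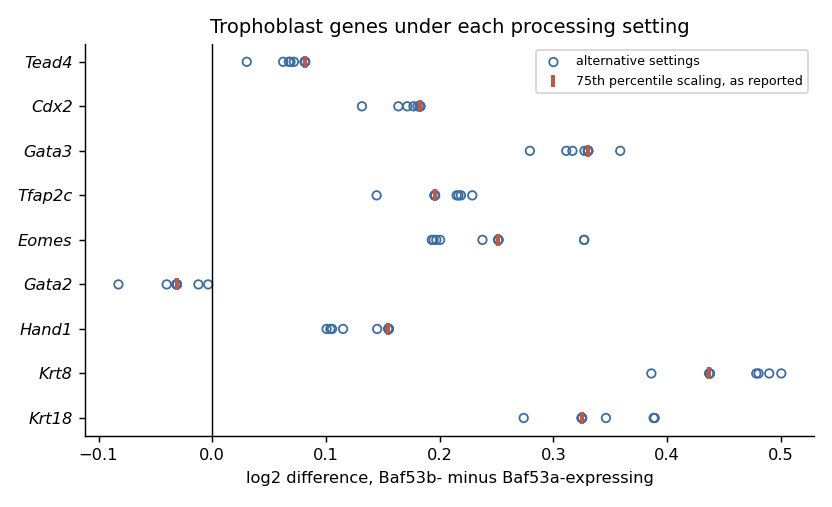
Log2 difference (Baf53b- minus Baf53a-expressing cells) of the 9 trophoblast genes measured on both arrays under 75th percentile scaling (red ticks) and under 11 other settings of scaling, background, filter and probe choice (circles). Every circle of Gata2 lies below 0 and every circle of the other genes above it.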

How the data were processed

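RNA of 1 culture per condition was labelled with Cy3 and hybridised to 1-colour Agilent mouse arrays. The authors deposited the intensity of each spot (the processed signal after background subtraction and spatial detrending, its error, the median signal and flags) from Feature Extraction 11.0.1.1, with the array design on mm9. A second table that the authors deposited holds 1 ratio per probe: all of 30479 probes compared equalled the processed signal divided by 1 number per array (1160 and 1126) within 0.1%.

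Control spots and spots marked as outliers were left out, log2 signals were averaged per probe, and each array's 75th percentile was taken off. The flag for well above background had to be set on at least 50% of a probe's spots. A gene is the mean of its probes measured on both arrays. A probe measured on 1 array has a lower bound against the higher of its own signal and the lowest signal well above background on the other array. Gene symbols come from RefSeq's gene table of GRCm38.p6, matched on the accession and used for names only, and promoter windows are RefSeq's of GRCm38.p6. The number of arrays limits the precision, and a difference of at least 2-fold or at least 0.2 (log2) is a description.

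The members, the gene lists and the thresholds were chosen with earlier results of these data known. The text names all members, Actl6a and Actl6b, all paralogs and the highest and lowest gene of each other list. Other genes named were chosen after their values were seen. The alternatives were cyclic loess, quantile normalization, normexp (offset 50), centring on the median, a stricter filter or none on dim probes, a weaker detection flag, outlier spots kept, the brightest probe of a gene and the authors' table. Python 3.11.15 with numpy 2.4.6 and pandas 2.3.3, R 4.3.3 with limma 3.58.1, and matplotlib 3.10.9 were used, and the steps were tested on simulated data.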

Additional observations from a re-analysis of the deposited data

How the results depend on the processing

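No paired analysis was possible because each condition had a single array, and no replicate could be left out. Of 11 alternatives, 10 were planned and 1, the subtraction of the median of each brightness group, was chosen after seeing the data. Under each, 8 members were higher with Baf53b and 0 were 2-fold apart, and their median ranged from 0.14 to 0.22. Settings of filter, flag and probe choice could not change a member with a single probe. The 8 were out of 9, or out of 10 with no filter on dim probes and with the weaker detection flag, where Elf5 was counted. Of all probes, 37.5% (centred on the median) to 59.0% (normexp) were higher. From 0.00684% (normexp) to 3.39% (no filter) of all probes were 2-fold apart. At least 0.2 higher were 4 members, or 5 with normexp, against 5.85% (stricter filter) to 16.9% (weaker flag) of all genes. Normexp was run on the median signal, since the mean signal was not used here. The lower bound of Actl6b, 3.86 (log2) as reported, was 1.52 with normexp, whose offset lifts dim signals by construction, and 3.58 in the authors' table, where the cause was not tested. The signal over background limits the dim genes, Elf5 above all, whose level may be anywhere below the lowest signal well above background. The median of the early mesoderm list ranged from -0.11 to 0.02 and that of ectoderm from -0.05 to 0.03.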

Other observations

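Among the other trophoblast stem cell genes, the homeobox genes Rhox6 and Rhox9, of a reproductive homeobox cluster on the X chromosome that is expressed in placenta, stood 0.44 and 0.39 higher on the log2 scale with Baf53b, at levels of 0.26 and 0.47 with Baf53a. The X-linked homeobox gene Esx1 and the placental gene Plac1 stood 0.40 and 0.39 higher. These 4 genes were chosen after their values were seen. Of all 18 Rhox genes measured on both arrays, 16 were higher with Baf53b, 9 by at least 0.2, with a median of 0.20, from -0.16 for Rhox10 to 0.44 for Rhox6. Many Rhox genes are close copies of each other, so their values are not independent. Most of these probes were dim, and dim probes more often stood at least 0.2 higher (35.5% of group 1 and 21.2% of group 2). Of 624 measured genes on the X chromosome, 64.6% were higher with Baf53b (median 0.05), against 48.5% of 15967 genes on the autosomes (median -0.01). At least 0.2 higher were 20.4% of these X chromosome genes and 12.3% of the autosomal genes. There was 1 array per condition and no test.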
